A study of Mus musculus with 2 samples.

Results

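The 7 globin genes described here, of 31053 genes in the deposited tables, were chosen by name as the embryonic and adult members of the mouse globin loci: Hba-x, Hba-a1 and Hba-a2 of the alpha type and Hbb-bh1, Hbb-y, Hbb-bt and Hbb-bs of the beta type. They were followed at E11 in mouse embryos, in the AGM (aorta, gonads and mesonephros), the region around the dorsal aorta where hematopoietic stem cells are first found, which was dissociated whole and read at the 3′ end of each transcript in single cells (10x Chromium). The WT library came from PDGFRB +/+ embryos and the KO library from PDGFRB -/- embryos, which lack the beta receptor for platelet-derived growth factor on the perivascular cells that the study is about. The KO line is a constitutive deletion bred through heterozygotes on C57BL/6J, both libraries were made at the same somite stage, and the number of embryos behind each library is not given in the sources used here. With 1 library per genotype there is no replicate, so no test was made, differences between WT and KO are differences between 2 libraries, and every interval is a 95% interval that covers counting error only.

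Hemoglobin is a tetramer of 2 alpha-type and 2 beta-type chains. In the mouse, the first red cells are the primitive erythrocytes of the yolk sac, which mature together while they circulate and in doing so exchange their globins. Hbb-bh1 gives way to Hbb-y at the beta locus, and Hba-x gives way to Hba-a1 and Hba-a2 at the alpha locus. Definitive red cells of the fetal liver and of the adult use Hba-a1, Hba-a2, Hbb-bt and Hbb-bs. An AGM dissected at E11 holds circulating blood.

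A UMI is 1 counted transcript molecule, read at its 3′ end, so that UMIs of different genes compare numbers of molecules without a correction for length. Barcodes were divided by their UMIs and by the share of globin among them. Barcodes with 2000 or more UMIs of which 10% or more were globin are called erythroid, and there were 765 in WT and 222 in KO. The remaining barcodes with 2000 or more UMIs are called other, 8442 in WT and 8935 in KO. Barcodes with 100 UMIs or fewer, 1369710 in WT and 1336018 in KO, are taken as droplets with free RNA only. Barcodes of 101 to 1999 UMIs, 59347 in WT and 66508 in KO, belong to none of the 3 classes.

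All members lie in a pair of gene clusters of GRCm38, with positions from GENCODE M21. The beta-type genes are on the minus strand of chromosome 7, with Hbb-y at 103851749 to 103853216, Hbb-bh1 at 103841637 to 103843164, Hbb-bs at 103826534 to 103828096 and Hbb-bt at 103812524 to 103813996, so that they are transcribed in the order embryonic to adult. The alpha-type genes are on the plus strand of chromosome 11, again with the embryonic gene first: Hba-x at 32276400 to 32278116, Hba-a1 at 32283511 to 32284465 and Hba-a2 at 32296489 to 32297298. Each position is that of the whole protein-coding gene.

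The 100 bases before the transcription start of RefSeq are shown for 5 members, because later results turn on a contrast between the Hba-a1 and Hba-a2 pair and the Hbb-bt and Hbb-bs pair. Whether these bases bear on that contrast was not tested. The table of promoters, on GRCm38.p6, matched 6 of the 7 members. The GENCODE genes of Hba-x and Hbb-bs begin upstream of their windows, which therefore lie wholly inside the annotated gene, and those of Hbb-y, Hbb-bt and Hba-a2 begin inside their windows. Capitals mark CACCC, the box that Krüppel-like factors such as KLF1 read, CCAAT, the box of NF-Y, TGACC, the half-site of nuclear receptors, and ATAAA or TATAA, the TATA-type box. Each was searched on both strands, together with GATAA, the core read by GATA1, and ATAAA and TATAA can overlap each other, as can TGACC and CCAAT. The sequences are written 5′ to 3′ on the strand of the gene.
Hbb-y, chr7:103853208-103853307, minus strand: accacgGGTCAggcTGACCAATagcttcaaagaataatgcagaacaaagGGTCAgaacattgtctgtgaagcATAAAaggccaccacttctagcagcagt
Hbb-bt, chr7:103813924-103814023, minus strand: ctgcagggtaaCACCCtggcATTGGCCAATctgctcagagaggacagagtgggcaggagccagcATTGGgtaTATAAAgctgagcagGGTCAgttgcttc
Hbb-bs, chr7:103827929-103828028, minus strand: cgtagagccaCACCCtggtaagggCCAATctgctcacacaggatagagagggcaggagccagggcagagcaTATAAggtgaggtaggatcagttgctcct
Hba-x, chr11:32276500-32276599, plus strand: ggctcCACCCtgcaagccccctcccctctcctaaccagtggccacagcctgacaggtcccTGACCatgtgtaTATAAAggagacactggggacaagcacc
Hba-a2, chr11:32296392-32296491, plus strand: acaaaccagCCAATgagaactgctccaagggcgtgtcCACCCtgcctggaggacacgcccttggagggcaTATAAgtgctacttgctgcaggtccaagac

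CACCC stood in 5 of the 6 windows, all but Hbb-y, and in 27.2% of the same windows of 32851 genes. CCAAT stood in 5, all but Hba-x, against 18.9% of all windows, and TATAA in 5, all but Hbb-y, against 10.2%. TGACC was found in Hbb-y, Hba-x and Hbb-bt, against 16.1% of all windows, and 3 of its copies were in Hbb-y. ATAAA was found in the same 3 genes, against 17.5%, and GATAA in none of the 6, against 8.55%. The Hba-a1 window holds the same bases as that of Hba-a2, moved by 3 bases, with 97 bases in common. The windows of Hbb-bt and Hbb-bs matched at 79 of 104 aligned positions, 76.0%.

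The erythroid barcodes were first checked against genes other than globins. At least 3 of 14 erythroid markers, among them Alas2 and Slc4a1, were detected in 762 of 765 WT and in 222 of 222 KO barcodes. Levels are given in CPM, the UMIs of a gene or list per 1e+06 UMIs of the class. Macrophage markers stood at 2.23 CPM (WT) and 1.04 CPM (KO), and no barcode held 3 of these 9 markers. Endothelial markers were closer to other barcodes, at 137 CPM (WT) and 81.2 CPM (KO) against 169 and 192 CPM. At least 3 of these 9 were held by 9 WT and 1 KO erythroid barcodes. Globin counts in the total of these CPM, which lowers every other list in erythroid barcodes. It made up 54.9% (WT) and 63.5% (KO) of their UMIs, so that per non-globin UMI the endothelial markers were not lower than in other barcodes. Mesenchymal markers were at 342 and 273 CPM, against 2537 and 1803 CPM in other barcodes, and 94 WT and 19 KO erythroid barcodes held 3 or more of these 8. Where these UMIs came from was not tested, and the values without such barcodes stand in the closing section. Free RNA scaled to the same mesenchymal markers would hold 1.30% of the globin UMIs of erythroid barcodes in WT and 0.51% in KO. The erythroid cut fell in a sparse range: 5 WT and 6 KO barcodes held 5 to 10% globin, and 7 WT and 3 KO barcodes held 10 to 15%.

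Erythroid barcodes made up 8.31% (7.75 to 8.89%) of WT barcodes with 2000 or more UMIs and 2.42% (2.12 to 2.76%) of KO barcodes, with a log2 KO-to-WT ratio of -1.78 (-2.00 to -1.56). The number of red cells in the tissue and the blood kept through dissection cannot be told apart here. Per barcode the KO cells were at least as deep, with a median of 19831 UMIs against 16779. Globin made up 54.9% of the UMIs of erythroid barcodes in WT and 63.5% in KO, with medians per barcode of 62.1% and 72.0%. These barcodes held 94.3% of all globin UMIs of the WT library and 90.6% of those of the KO library.

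Hbb-y, the embryonic beta-type gene that is expressed through most of primitive maturation, was the most abundant member in both libraries. It had 4701789 UMIs, or 328158 CPM, in WT erythroid barcodes and 1731570 UMIs, or 358544 CPM, in KO. Hba-x, the embryonic alpha-type (zeta) gene, came next, with 114656 CPM (WT) and 97134 CPM (KO). In WT the order then ran Hba-a1 (37462 CPM), Hbb-bt (26583 CPM), Hba-a2 (19570 CPM), Hbb-bh1 (14299 CPM) and Hbb-bs (8116 CPM). In KO it ran Hba-a1 (72408 CPM), Hbb-bt (43312 CPM), Hba-a2 (39450 CPM), Hbb-bs (13912 CPM) and Hbb-bh1 (10096 CPM). The Poisson intervals of neighbours in these orders did not meet in either library. By counted UMIs Hbb-bh1, the earliest of the beta-type genes, was thus last in KO and last but one in WT. The intervals do not cover reads common to Hbb-bt and Hbb-bs or to Hba-a1 and Hba-a2, which can be missing from these counts, as described further on.

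In CPM, Hbb-bh1 and Hba-x were lower in KO, and the 4 adult genes and, by less, Hbb-y were higher. Hbb-bh1 had a log2 ratio of KO over WT in CPM of -0.50 (-0.52 to -0.49) and Hba-x one of -0.24 (-0.24 to -0.23). The adult genes were all higher in KO, with Hba-a1 at 0.95 (0.94 to 0.96), Hba-a2 at 1.01 (1.00 to 1.02), Hbb-bt at 0.70 (0.70 to 0.71) and Hbb-bs at 0.78 (0.76 to 0.79). Hbb-y lay between them at 0.13 (0.13 to 0.13). Per non-globin UMI, a scale that globin itself does not enter, the direction of Hba-x turned, to 0.066 (0.061 to 0.071), and Hbb-bh1 was at -0.20 (-0.21 to -0.18) and Hbb-y at 0.43 (0.43 to 0.44). The adult genes were higher on this scale too, from 1.01 for Hbb-bt to 1.32 for Hba-a2. Past a ratio of 1.5 were 4 of the 7 members, the 4 adult genes, all higher in KO. Of all 11780 genes with 10 or more UMIs, 32.2% were past that ratio in either direction. The median log2 ratio over those genes was -0.28, since globin takes a larger share of the UMIs in KO, and 5.65% of genes were past 1.5 in the direction of the adult globins.

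**Figure D1:**
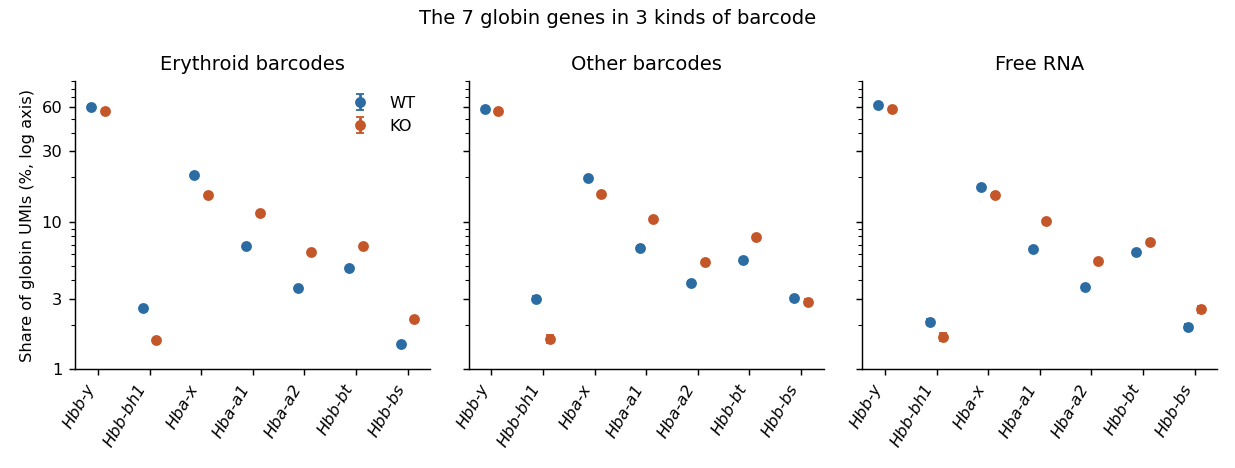
Share of globin UMIs taken by each of the 7 genes (percent, log axis) in erythroid barcodes, other barcodes and free RNA, with WT in blue and KO in orange; bars are exact 95% binomial intervals and mostly smaller than the points. In erythroid barcodes Hbb-bh1 and Hba-x sit lower in KO and the 4 adult genes higher, and Hbb-y and Hba-x are the most abundant in every panel. The panels of a library differ in smaller members, with Hbb-bs in WT at 1.48% in erythroid and 3.03% in other barcodes.

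Shares of globin do not depend on how much other RNA a barcode holds. On this scale the members kept the directions they had in CPM, except Hbb-y, which was higher in KO in CPM and lower as a share. Of all globin UMIs in erythroid barcodes, Hbb-y took 59.8% in WT and 56.5% in KO, Hba-x 20.9% and 15.3%, and Hbb-bh1 2.61% and 1.59%. Hba-a1 took 6.83% and 11.4%, Hba-a2 3.57% and 6.21%, Hbb-bt 4.84% and 6.82%, and Hbb-bs 1.48% and 2.19%. Alpha-type genes together were 31.3% of globin in WT and 32.9% in KO, so that 2.20 beta-type UMIs were counted per alpha-type UMI in WT and 2.04 in KO. The balance between the loci thus differed much less between the libraries than the balance within each.

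The largest difference was at the alpha locus. Hba-x made up 66.8% (66.7 to 66.8%) of alpha-type UMIs in WT erythroid barcodes and 46.5% (46.4 to 46.6%) in KO, a difference of -20.3 points. In WT there were 2.01 Hba-x UMIs per adult alpha UMI, and in KO 0.868. By counted UMIs the embryonic gene was thus the major one in WT and the minor one in KO. Reads common to Hba-a1 and Hba-a2 can be missing from the adult count, as described further on. At the beta locus, Hbb-bh1 made up 4.18% (4.16 to 4.19%) of Hbb-bh1 plus Hbb-y in WT and 2.74% (2.71 to 2.76%) in KO, a difference of -1.44 points. Hbb-bt plus Hbb-bs made up 9.20% (9.18 to 9.22%) of beta-type UMIs in WT and 13.4% (13.4 to 13.5%) in KO, a difference of 4.24 points.

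The difference was carried by nearly all barcodes rather than by a few. A small number of erythroid barcodes, 10 in WT and 2 in KO, had most of their beta-type UMIs from Hbb-bt and Hbb-bs. They are called adult-type here, a cut at 50% chosen after the values were seen, and are described further on. Among the remaining 755 WT and 220 KO barcodes, called embryonic-type, the Hba-x share of alpha-type UMIs had a median of 67.4% in WT, with 5th and 95th percentiles of 55.9% and 74.7%, and of 47.5% in KO, with 30.6% and 60.1%. All 220 KO barcodes lay under the WT median, 189 under the 5th percentile of WT and 10 under the lowest WT barcode. The ranges still overlapped, since KO barcodes reached up to 65.2%, and the highest WT barcode had 82.0%.

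The Hbb-bh1 share of Hbb-bh1 plus Hbb-y overlapped more. Its median was 3.98% in WT and 2.45% in KO, and 179 of 220 KO barcodes lay under the WT median, 65 of them under its 5th percentile of 1.95%. The adult share of beta-type UMIs had a median of 8.49% in WT and 12.5% in KO. Only 22 KO barcodes were under the WT median, and 93 were over the 95th percentile of WT, 13.4%. The 3 shares were measured in the same cells, so they are not 3 independent observations.

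**Figure D2:**
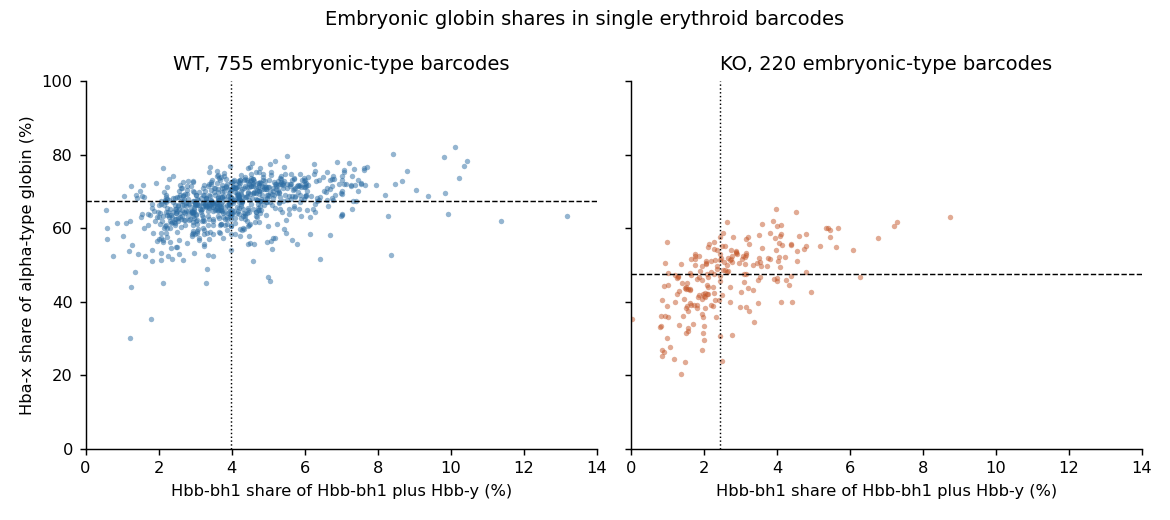
Each point is 1 embryonic-type erythroid barcode, with the Hbb-bh1 share of Hbb-bh1 plus Hbb-y on the x axis and the Hba-x share of alpha-type globin on the y axis (both percent), WT at left and KO at right, and dashed and dotted lines at the medians. The KO cloud lies lower and further left, with medians of 47.5% and 2.45% against 67.4% and 3.98% in WT, and in both libraries it rises from left to right.

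The differences were found at each depth. With each library's embryonic-type barcodes divided into 4 groups by UMIs, the Hba-x share ran from 64.3% in the shallowest to 69.4% in the deepest WT group, and from 43.4 to 51.0% among the KO groups. The Hbb-bh1 share ran from 3.48 to 4.55% in WT and from 2.32 to 3.17% in KO. The lowest WT group was above the highest KO group for both shares, and the highest WT group was below the lowest KO group for the adult share of beta-type UMIs, 9.54% against 11.8%.

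Within each library, the members changed together in an order. Embryonic-type barcodes were sorted by the Hbb-bh1 share of Hbb-bh1 plus Hbb-y into 5 bins of equal number and the UMIs summed in each. From the bin with least to the bin with most Hbb-bh1, that share rose from 2.13 to 6.58% in WT and from 1.21 to 4.87% in KO. The Hba-x share of alpha-type UMIs rose over the same bins from 63.1 through 65.3, 67.4 and 68.5 to 70.3% in WT, and from 38.2 through 43.2, 47.7 and 49.0 to 53.8% in KO. The adult share of beta-type UMIs fell by bin, from 10.0 through 9.45, 8.56 and 8.05 to 7.44% in WT. In KO it ran from 14.2 through 13.2, 13.3 and 12.1 to 11.2%, with the bins at 13.2 and 13.3% almost level. Barcodes with less of the earliest beta-type gene thus also had less of the embryonic alpha-type gene and more of the adult beta-type genes.

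Globin itself was a larger part of the RNA where Hbb-bh1 was lower. It made up 59.4% of UMIs in the WT bin with least Hbb-bh1 and 52.8% in the bin with most, with the lowest value, 49.7%, in the fourth bin. In KO it went from 74.5 to 54.9%. Non-globin erythroid markers were at 12850 CPM of the non-globin UMIs in the first KO bin and 8152 CPM in the last, and at 10903 and 10316 CPM in WT. In WT they were lowest in the fourth bin, at 8571 CPM. Mesenchymal markers were at 136 and 656 CPM of the non-globin UMIs in the first and last KO bins, and at 1020 and 383 CPM in WT. They were highest in the fourth WT bin, at 1042 CPM, and in the third KO bin, at 1312 CPM. The part of mesenchymal RNA in these values was not tested.

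At the same Hbb-bh1 share the libraries still differed in the other members. The first WT bin, with 2.13% Hbb-bh1, had 63.1% Hba-x and 10.0% adult beta-type. The KO bins on either side of it, with 1.89 and 2.44% Hbb-bh1, had 43.2 and 47.7% Hba-x and 13.2 and 13.3% adult beta-type.

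**Figure D3:**
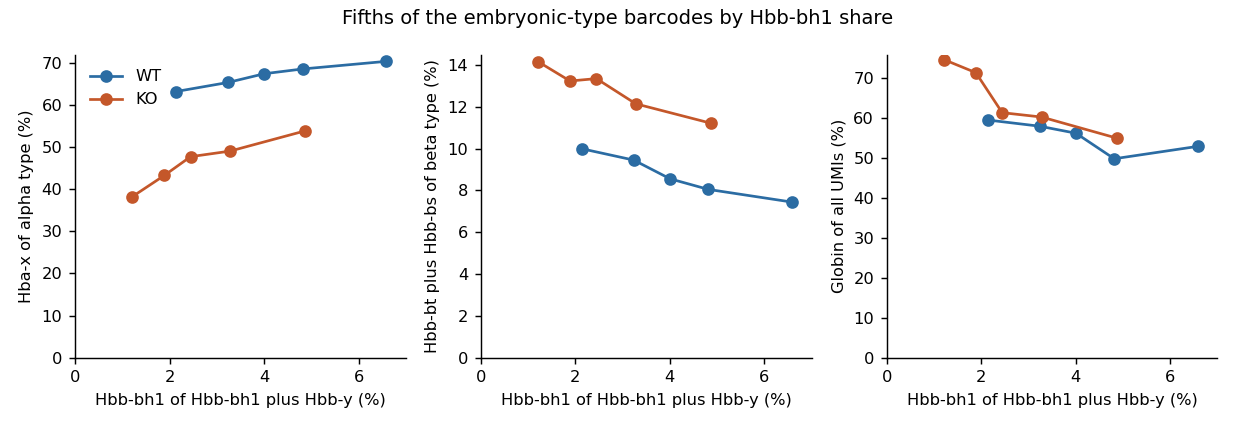
Embryonic-type erythroid barcodes in 5 bins by their Hbb-bh1 share of Hbb-bh1 plus Hbb-y (x axis, percent), WT in blue and KO in orange; the y axes give the Hba-x share of alpha-type UMIs, the Hbb-bt plus Hbb-bs share of beta-type UMIs and the globin share of all UMIs (percent). Hba-x rises and the adult beta-type share falls with Hbb-bh1 in both libraries, and the KO line runs below the WT line for Hba-x and above it for the adult beta-type genes.

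Across single embryonic-type barcodes, the shares of all globin taken by Hbb-bh1 and Hba-x, which lie on different chromosomes, had a Spearman correlation of 0.52 in WT (755 barcodes) and 0.66 in KO (220 barcodes). Hbb-bh1 and Hbb-bt, which share a locus, had -0.40 and -0.35. The barcodes of a library share its embryos, preparation and sequencing, and the shares of a barcode add up to 100%, so these are descriptions. The Hba-x share also fell with the globin share of a barcode, with correlations of -0.49 and -0.62, and rose with its UMIs, with 0.34 and 0.20.

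The adult members behaved differently at the 2 loci. Hba-a1 and Hba-a2 kept a ratio that varied little from cell to cell, though by more than counting alone. Hba-a2 was 34.2% of the pair in WT embryonic-type barcodes and 35.2% in KO, with 5th to 95th percentiles of 29.0 to 39.1% and 30.6 to 39.6%. Their shares of globin correlated at 0.71 in WT and 0.80 in KO.

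Hbb-bt and Hbb-bs did not keep such a ratio. Summed over embryonic-type barcodes there were 3.92 Hbb-bt UMIs per Hbb-bs UMI in WT and 3.51 in KO, but single barcodes ran from 0 to 91.7% Hbb-bs in WT and from 0 to 70.0% in KO. Of 746 WT barcodes with 50 or more UMIs of the pair, 173 had under 5% Hbb-bs and 40 had over 50%. Of 219 such KO barcodes, 41 had under 5% and 10 over 50%. The variance of the Hbb-bs share between barcodes was 105 times that of counting in WT and 166 times in KO, where the Hba-a2 share gave 5.06 and 8.28 times. The shares of globin taken by Hbb-bt and by Hbb-bs had correlations of 0.04 in WT and -0.01 in KO, so that a cell with much of one had neither more nor less of the other.

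**Figure D4:**
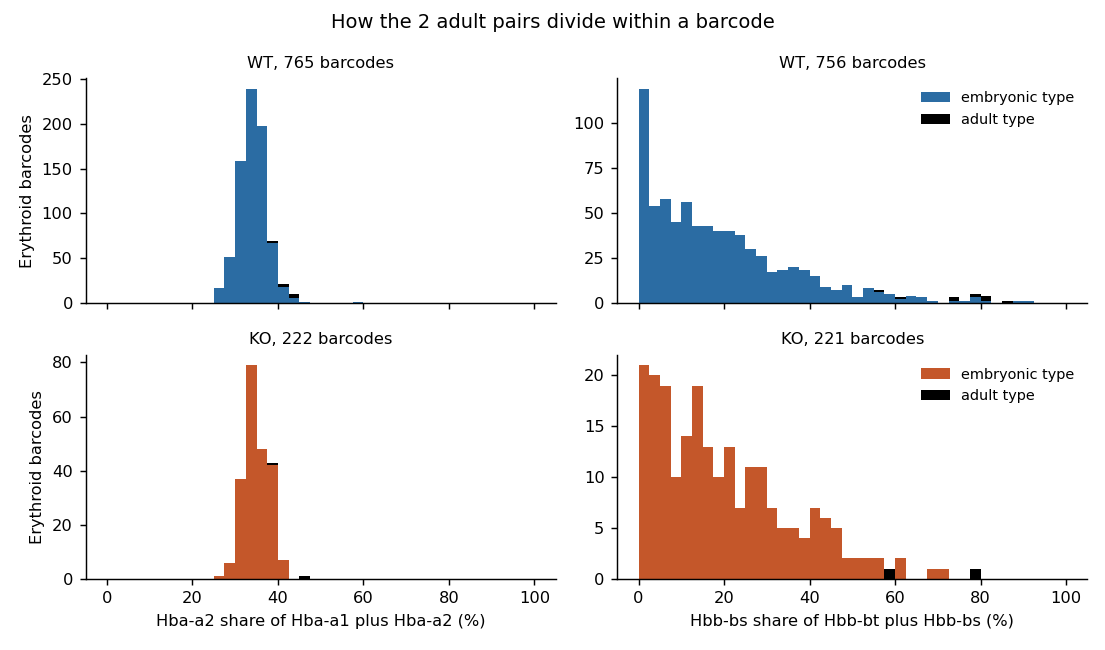
Number of erythroid barcodes by the Hba-a2 share of Hba-a1 plus Hba-a2 (left, percent) and by the Hbb-bs share of Hbb-bt plus Hbb-bs (right, percent), WT above and KO below, with adult-type barcodes in black; only barcodes with 50 or more UMIs of the pair are counted. The alpha pair stands in a narrow peak near 34% in both libraries, and the beta pair spreads from 0 to over 70%, with adult-type barcodes all above 50%.

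The counting of these near-identical genes limits both statements. In the last 400 bases of the transcripts, where 3′ reads fall, Hba-a1 and Hba-a2 matched at 92.1% of aligned positions and shared 81.2% of 50-base stretches. Hbb-bt and Hbb-bs matched at 89.7% and shared 54.4%. The other pairs compared, Hbb-y with Hbb-bh1, Hba-x with Hba-a1 and Hbb-y with Hbb-bt, shared no stretch of 50 bases. Reads from shared stretches cannot be given to 1 gene, so the levels of the pairs can be understated and their ratio depends on where reads fell, which was not tested. The sums Hba-a1 plus Hba-a2 and Hbb-bt plus Hbb-bs can be short by the same reads. The Hba-x share of alpha-type UMIs can therefore be overstated in both libraries, and the adult share of beta-type UMIs understated. The number of beta-type UMIs per alpha-type UMI carries the same limit.

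The adult-type barcodes held few UMIs of the embryonic members. The 10 WT barcodes held 39 Hbb-y, 12 Hbb-bh1 and 213 Hba-x UMIs beside 21345 of Hbb-bs, 8405 of Hbb-bt, 6681 of Hba-a1 and 4860 of Hba-a2. The 2 KO barcodes held 6 of Hbb-y and 0 of Hbb-bh1 and Hba-x, beside 9068 of Hbb-bs, 5089 of Hbb-bt, 3356 of Hba-a1 and 2362 of Hba-a2. Since the 50% cut chose them, their adult share, 99.8% in WT, is a description. Of the 213 Hba-x UMIs, 200 were on 1 barcode with 31829 UMIs.

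The 50% cut used neither the alpha-type genes nor the split of the adult beta-type genes. Hba-x was 1.81% of alpha-type UMIs in the WT adult-type barcodes and 0% in the KO ones. Hbb-bs was 71.7% of Hbb-bt plus Hbb-bs in the WT adult-type barcodes, from 55.4 to 86.9%, and 64.1% in KO, with 59.0% and 78.3% in the 2 barcodes. All 12 thus had more Hbb-bs than Hbb-bt, while the sums over embryonic-type barcodes had it the other way round, at 20.3% and 22.2% Hbb-bs. Below the cut of 10% globin, only barcodes with 1% globin or more were looked at, and there this did not hold throughout. Of 3 WT and 2 KO adult-type barcodes there, 1 in WT had 94 UMIs of Hbb-bt and 0 of Hbb-bs and 1 in KO had 2 and 0, and the others had 96.8% and 97.0% Hbb-bs in WT and 63.8% in KO. The WT barcode with 94 held 4 erythroid, 5 mesenchymal, 3 endothelial and 3 megakaryocyte markers. The KO barcode with 2 held 2 erythroid, 3 endothelial and 5 megakaryocyte markers. The barcode at 96.8% held 9 endothelial and 0 erythroid markers, that at 97.0% 6 mesenchymal and 2 erythroid, and that at 63.8% 10 erythroid. Hba-a2 there was 41.3, 9.21 and 37.0% of the alpha pair in the WT barcodes and 7.02 and 24.9% in the KO ones. In the 10 WT and 2 KO adult-type barcodes above the cut it was 42.1% and 41.3%, against 34.2% and 35.2% in embryonic-type barcodes. Of those above the cut, each WT barcode had between 1 and 14 of the 14 erythroid markers detected, and the KO ones had 4 and 14. Their depth ran from 2491 to 31829 UMIs in WT and was 6511 and 23342 UMIs in KO. The WT barcode with 14873 UMIs, at 19.4% globin, held 3 erythroid markers beside 5 mesenchymal and 3 endothelial ones.

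Globin UMIs were found on nearly all other barcodes too, at low numbers. They were on 99.1% of the 8442 WT and on 92.9% of the 8935 KO other barcodes, with medians of 6 and 3 UMIs per barcode. Globin was 573 CPM of the other class in WT and 442 CPM in KO, against 40767 and 21000 CPM in free RNA. A few barcodes weighed heavily: 43 WT and 13 KO barcodes with over 0.5% globin held 31.0% and 58.0% of the globin of the class. Without them the level was 397 CPM in WT and 186 CPM in KO, so that the log2 ratio of KO over WT went from -0.38 (-0.39 to -0.36) to -1.09.

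Of the members, 2 of 7 were past a ratio of 1.5 in other barcodes, Hbb-bh1 with a log2 ratio of -1.28 and Hba-x with -0.75, both lower in KO, where 18.1% of 18893 genes were past it in either direction. Hbb-y had -0.42 and Hbb-bs -0.47, and Hba-a1, Hbb-bt and Hba-a2 had 0.29, 0.14 and 0.09. Those 3 positive values rest on the few barcodes with much globin. Without barcodes over 0.5% globin, an alternative chosen after the data were seen, all 7 members were lower in KO, with Hba-a1 at -0.30 (-0.37 to -0.23), Hbb-bt at -0.54 (-0.62 to -0.46) and Hba-a2 at -0.56 (-0.65 to -0.46). Hbb-bh1 was then at -1.90, Hba-x at -1.52, Hbb-y at -1.16 and Hbb-bs at -1.01. Hbb-y was on 95.9% of WT and 79.6% of KO other barcodes, and Hbb-bh1 on 18.2% and 5.28%.

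The low level was found in cells of unlike kind. Among barcodes with at least 3 markers of 1 cell type and fewer than 3 erythroid markers, globin was at 378 CPM in mesenchymal, 407 CPM in macrophage, 329 CPM in neural and 332 CPM in muscle barcodes of WT. In KO these were 171, 216, 145 and 166 CPM. Thinned to 2000 UMIs each, 58.7% of such WT mesenchymal barcodes and 61.0% of macrophage barcodes still had a globin UMI, against 36.1% and 47.9% in KO. Barcodes assigned to no cell type stood higher, at 1008 CPM (WT) and 512 CPM (KO). They were also shallower, with median UMIs of 3057 and 3159 against 13224 and 12628 in mesenchymal barcodes. Megakaryocyte barcodes also stood higher, at 641 CPM on 10 WT and 746 CPM on 11 KO barcodes, with medians of 4046 and 20841 UMIs. Hba-a1 was 67.0% of the 197 globin UMIs of those KO barcodes, and 1 barcode with 7060 UMIs held 106 of its UMIs. Endothelial barcodes had 585 CPM (WT) and 121 CPM (KO), and in WT 28.9% of the globin UMIs were Hbb-bs. A single WT barcode with 16200 UMIs and 9 endothelial markers held 626 of these Hbb-bs UMIs, beside 21 of Hbb-bt and 3 of Hbb-y. At 5.22% globin this barcode also raises the WT endothelial level of 585 CPM, and the level without it was not computed. Where the globin UMIs on barcodes of these cell types came from was not tested.

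The composition of the globin on other barcodes was close to that of the same library's erythroid barcodes for Hba-x, with differences beyond counting error. Hba-x was 65.5% (64.9 to 66.1%) of alpha-type UMIs on WT and 49.2% (48.6 to 49.9%) on KO other barcodes, against 66.8% and 46.5% on erythroid barcodes. Hbb-bh1 was 4.94% and 2.77% of Hbb-bh1 plus Hbb-y, against 4.18% and 2.74%. The adult beta-type genes were further apart, at 12.3% and 15.7% of beta-type UMIs against 9.20% and 13.4%. In WT, Hbb-bs was 3.03% of globin on other barcodes against 1.48% on erythroid ones, and 35.4% against 23.4% of Hbb-bt plus Hbb-bs. Over both libraries and all 7 members, the largest difference in a member's share of globin from the erythroid barcodes, in other barcodes or free RNA, was 3.61 points.

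Free RNA held 4.08% (4.05 to 4.10%) globin in WT and 2.10% (2.08 to 2.12%) in KO, with a log2 KO-to-WT ratio of -0.96 (-0.97 to -0.94). Here 4 of 7 members were past a ratio of 1.5, all lower in KO: Hbb-bh1 with a log2 ratio of -1.30, Hba-x with -1.14, Hbb-y with -1.06 and Hbb-bt with -0.75. Of 11990 genes, 18.7% were past it in either direction, with a median of 0.08. Hbb-bs had -0.57, Hba-a2 -0.37 and Hba-a1 -0.34, so that the adult genes differed less between the free RNA pools than the embryonic ones. Hba-x was 62.9% (62.4 to 63.5%) of alpha-type UMIs in WT free RNA and 49.6% (48.8 to 50.4%) in KO. Both values lie between those of the WT and the KO erythroid barcodes.

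The libraries also shared barcodes, and part of the globin outside erythroid barcodes sat on them. Of the 765 erythroid barcodes of WT, 763 had between 8 and 868 UMIs in the KO library, with a median of 115 UMIs, and the other 2 had 2000 or more there. All 222 erythroid barcodes of KO had between 13 and 1175 UMIs in the WT library, with a median of 146.5. The globin UMIs seen in this way were 0.657% of those on the same barcodes in WT and 0.719% of those in KO. Such barcodes followed the library in which they were erythroid: Hba-x was 68.8% of alpha-type UMIs on WT erythroid barcodes read in the KO library, and 52.1% on KO erythroid barcodes read in the WT library. In all, 24 barcodes had 2000 or more UMIs in both libraries, and none was erythroid in both. How the same barcodes came to hold UMIs in both libraries was not tested.

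Free RNA changed when these were left out. Without barcodes that had 2000 or more UMIs in the other library, an alternative chosen after the data were seen, globin was 4.56% of free RNA in WT and 1.76% in KO. The log2 ratio of KO over WT became -1.38, and the Hba-x share 63.1% in WT and 44.7% in KO, the latter now under the 46.5% of KO erythroid barcodes. In KO, 271 of these barcodes with 100 UMIs or fewer were erythroid in WT and alone held 12788 of the 49515 globin UMIs of free RNA.

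**Figure D5:**
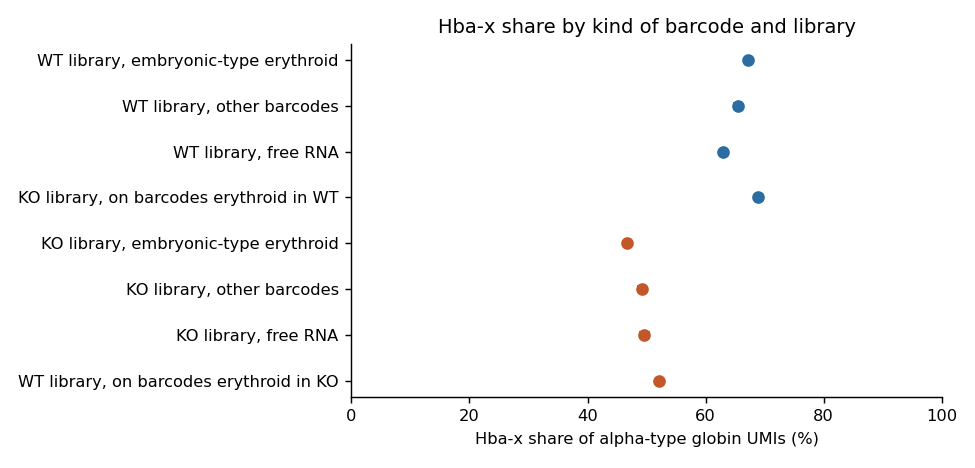
Hba-x share of alpha-type globin UMIs (percent) in embryonic-type erythroid barcodes, other barcodes and free RNA of each library, and on the barcodes of 1 library that are erythroid in the other; blue marks UMIs of WT or of barcodes erythroid in WT, orange those of KO, and bars, where drawn, are exact 95% binomial intervals. The 4 blue points lie between 62.9 and 68.8% and the 4 orange points between 46.7 and 52.1%.

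The minor genes of the loci had few UMIs. In erythroid barcodes Hbq1b, a theta-globin gene of the alpha locus, had 83.1 CPM in WT and 58.0 CPM in KO, Hbq1a 3.98 and 9.32 CPM, and Hbb-bh2 of the beta locus 1.40 and 2.48 CPM. On the scale of non-globin UMIs, Hbq1b was enriched over other barcodes by a log2 ratio of 10.9 in WT and 11.3 in KO.

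Of the listed regulators and partners of globin genes, 20 were among the 31053 genes, and the listed names Ahsp and Eraf were not. Of these 20, 19 had 10 or more UMIs in erythroid barcodes. On the scale of non-globin UMIs, where globin does not take from the total, 4 were lower in KO past a ratio of 1.5 and 1 was higher, where 27.3% of all 11773 genes were past it in either direction. Gata1, a master factor of the red lineage, had 81.8 CPM in WT and 44.2 CPM in KO, a log2 ratio of -0.89 (-1.25 to -0.54). Lmo2, an adaptor of the GATA1 complex, had 69.2 and 45.4 CPM, with -0.61 (-0.97 to -0.26). Gata2 and Nr2c1 were the others that were lower, on 6 and 3 KO UMIs, with intervals that included 0. Klf2, which acts on embryonic globin genes together with Klf1, had 13.9 and 26.1 CPM, with 0.91 (0.36 to 1.43). Klf1 itself, the activator that binds the CACCC box of the adult beta gene, had 248 and 173 CPM, with -0.52 (-0.70 to -0.34), which is past 1.5 only on the scale of all UMIs.

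For Bcl11a, Sox6 and Zbtb7a, regulators known to silence embryonic globins, the intervals of the ratio included 0. Bcl11a had 28.3 CPM in WT and 34.6 CPM in KO, with a log2 ratio of 0.29 (-0.15 to 0.71), and Sox6, with which it acts, 6.34 and 7.94 CPM, with 0.32 (-0.67 to 1.23). Zbtb7a had 40.4 and 38.6 CPM, with -0.07 (-0.47 to 0.32). Nr2f2 (COUP-TFII), another repressor of embryonic globin genes, had 79.2 and 61.2 CPM, with -0.37 (-0.68 to -0.07), and was past 1.5 on the scale of all UMIs, at -0.68. Bcl11a, Sox6 and Nr2f2 were lower in erythroid than in other barcodes, by log2 ratios of -1.60, -1.52 and -1.55 in WT. For Nr2f2 the ratio was -1.61 in KO, and other barcodes held 231 CPM (WT) and 187 CPM (KO) of it. How much of the Nr2f2 RNA on erythroid barcodes came from other cells was not tested. Gata1, Tal1, Nfe2 and Klf1 were the regulators most enriched in erythroid barcodes, at 6.23, 6.51, 6.08 and 8.19 in WT. The median over the 19 regulators was -0.04, beside 0.03 over all genes.

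Outside globins, the genes most like the Hbb-bh1 share of Hbb-bh1 plus Hbb-y were found by Spearman correlation over the WT erythroid barcodes, among 761 genes seen in at least 50% of the erythroid barcodes of each library. Among the highest were Mt2 (0.32), Rps18 (0.32), Rps27a (0.31) and Rps25 (0.30), of which Mt2 codes for a metallothionein and the other 3 for ribosomal proteins. The lowest were Tpt1 (-0.31), Fth1 (-0.31), Gpx1 (-0.31), Ubb (-0.28) and Ftl1 (-0.28), where Fth1 and Ftl1 code for ferritin chains, Gpx1 for a glutathione peroxidase and Ubb for ubiquitin. In KO these 4 had values from 0.27 to 0.51 and the 5 lowest from -0.48 to -0.28, each with the same sign as in WT. The median over the 761 genes was 0.04 in WT and 0.07 in KO. These are correlations over 765 WT and 222 KO barcodes of 1 library each, of levels that share a total with each other. They include the adult-type barcodes. Without those, among 755 genes, Malat1 (-0.30 in WT) stood among the 5 lowest in place of Ubb.

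The genotype labels were checked at the targeted gene and the libraries differed in more than genotype. In other barcodes, Pdgfrb had 47.3 CPM (46.2 to 48.4) with the WT label and 7.38 CPM (6.95 to 7.84) with the KO label, and in erythroid ones 4.05 and 1.24 CPM. The authors took KO cells with detected PDGFRβ out of their own comparisons, and such barcodes were kept here. Xist, which is expressed from the inactive X chromosome of females, had 879 CPM and 0.137 CPM in the same other barcodes. UMIs of 4 Y-linked genes there numbered 5 in WT and 24682 in KO. Genotype, sex of the embryos, library and any difference in developmental age within E11 cannot be told apart in the values above. Exceptions stood among the erythroid barcodes: 42 of the 43 Xist UMIs of KO erythroid barcodes were on 3 of the 222, which had no UMI of the 4 Y-linked genes, while none of 8935 KO other barcodes had 5 or more Xist UMIs. Y-linked UMIs were found on 93 of the 222, so their absence alone does not set a barcode apart. In the 3 barcodes with 5 or more Xist UMIs, Hba-x shares were 55.1, 59.5 and 61.7%. These lay above the KO median of 47.5% and under the WT median of 67.4%. In the same order, Hbb-bh1 shares were 2.57, 5.46 and 7.3%, against medians of 2.45% in KO and 3.98% in WT. Adult beta-type shares were 12.99, 12.55 and 4.002%, against medians of 12.5% in KO and 8.49% in WT.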

How the data were processed

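The authors aligned the reads with Cell Ranger 3.1.0 to mm10 (GRCm38) and deposited unfiltered UMI counts per gene and barcode, whole numbers without normalization. The WT library held 179743201 UMIs and the KO library 174597654. The 7 members, the lists and the classes of barcodes were chosen with earlier results of these data known. Named genes are the members, the other genes of the loci, a list of regulators, and the 5 genes with the highest and the 5 with the lowest correlation with the Hbb-bh1 share, 1 of which is not reported here.

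UMIs were summed over each class and given as CPM with exact Poisson intervals or as shares with exact binomial (Clopper-Pearson) intervals at 95%. Intervals of ratios are conditional binomial, and those of differences in shares combine the intervals of the shares. With 1 library per genotype no test was made. Genes entered a comparison with 10 or more UMIs in both libraries together. Ambient RNA was not removed and doublets were kept. The alternatives include the removal of doublets. Free RNA was subtracted only for the Hba-x, Hbb-bh1 and adult beta-type shares of erythroid barcodes, and not for globin on other barcodes. Python 3.11.15, numpy 2.4.6, scipy 1.17.1 and pandas 2.3.3 were used, and intervals and thinning were tested on simulated data.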

Additional observations from a re-analysis of the deposited data

Results flagged for a closer look

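Several signals lay in barcodes or genes that the comparisons did not use. Among barcodes of 101 to 1999 UMIs, 380 in WT and 523 in KO had 10% or more globin. Of these, 192 in WT and 490 in KO were erythroid barcodes of the other library. The 188 WT barcodes that were not had 47.3% Hba-x among alpha-type UMIs and 44.7% adult beta-type, and without adult-type barcodes 67.0% and 7.90%. The 33 KO barcodes that were not had 31.6% and 34.1%, and without adult-type barcodes 44.0% and 10.5%.

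Adult-type barcodes numbered 16 in WT and 4 in KO in this range, of which 15 in WT and 2 in KO were not erythroid in the other library. Hbb-bs was 97.0% of their Hbb-bt plus Hbb-bs UMIs in WT and 94.7% in KO, higher than the 71.7% and 64.1% of the deeper ones. No test bears on that difference.

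The minor globin genes were detected in erythroid barcodes above the 3 UMIs that a count of 0 allows. Hbq1b had 1191 UMIs in WT and 280 in KO, Hbq1a 57 and 45, and Hbb-bh2 20 and 12. In KO, 3 erythroid barcodes with 5 or more Xist UMIs stood apart from the rest of a library rich in Y-linked UMIs, and their origin was not tested.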

How the results depend on the processing

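No paired analysis was possible because each genotype has 1 library, and for the same reason no replicate could be left out. Of 65 alternatives, 48 planned and 17 chosen after seeing the data, 4 turned a direction, all of them log2 ratios of single members. Hba-x in erythroid barcodes went from -0.24 to 0.066 per non-globin UMI, and without other barcodes over 0.5% globin Hba-a1 went from 0.29 to -0.30, Hba-a2 from 0.09 to -0.56 and Hbb-bt from 0.14 to -0.54 in that class. The Hba-x difference of -20.3 points became -20.5 with at least 5000 UMIs, -20.5 with globins at 50%, -19.5 as a mean over barcodes, -19.8 thinned to 2000 UMIs, -20.5 without doublets and -20.6 without the KO barcodes with Xist. The Hbb-bh1 difference of -1.44 points became -1.48 as a mean over barcodes, -1.40 thinned and -1.48 without the barcodes with Xist. The adult beta-type difference of 4.24 points became 4.18 with at least 1000 UMIs, 4.48 with 5000, 3.57 as a mean over barcodes, 3.41 thinned, 4.13 without doublets and 4.14 without adult-type barcodes. The free RNA log2 ratio of -0.96 became -1.39 at 20 UMIs or fewer, -0.99 over non-globin UMIs and -1.38 without barcodes shared with the other library. That of other barcodes moved most: from -0.38 to -0.46 with at least 1000 UMIs, -0.32 with 5000, -0.65 with globins at 5%, -1.66 with globins at 50%, -0.88 as a mean over barcodes, -0.91 thinned, -1.14 without doublets and -1.09 without barcodes over 0.5% globin. The cut at 50% puts red cells into this class by construction, and the means over barcodes and thinned values weigh deep barcodes less. The ratio of erythroid shares stayed within its interval. The largest difference in composition, 3.61 points, is that of Hba-x in WT free RNA. Summing the near-identical pairs leaves Hba-x alone, so that alternative could not lower it. For the bins, only the rise of Hba-x from first to last was compared. Without adult-type barcodes it went from 7.97 to 7.16 points in WT and from 16.7 to 15.6 points in KO. Beyond counting error, the variation between embryos and between preparations limits every value, and it cannot be measured with 1 library per genotype.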
